A study of Macaca mulatta with 51 samples.

Results

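The 10 genes described here make or regulate fatty acids de novo: ACLY, ACACA, ACACB, FASN, SCD, ELOVL6 and ME1 encode enzymes, SREBF1 and MLXIPL encode transcription factors, and THRSP encodes a nuclear protein tied to lipogenesis. They were taken by name, as the entries of the count table whose human symbol was one of these names, and all 10 were found among 16033 genes. All 10 also passed the filter on low counts in both tissues.

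Expression was measured by RNA sequencing in subcutaneous adipose tissue (AT) and in gastrocnemius skeletal muscle (SM) of rhesus macaques with diet-induced obesity. The 10 animals, 5 males and 5 ovariectomized females aged 11 to 22 years, had been fed a diet rich in fat for 2 years or longer. Each was injected daily with native human FGF21, a metabolic hormone, at doses rising from 10 to 1000 ug/kg, with 1 animal held at 300 ug/kg. Biopsies were taken before the first dose (pre-treatment), after 12 weeks of dosing (post-treatment) and 16 weeks after the last dose (washout), and no animals were followed without FGF21, so that time on study and treatment cannot be told apart. The AT libraries came from 10 animals and numbered 10 before, 9 after and 8 following washout. Those of SM came from 8 animals and numbered 6, 8 and 7, with 1 library per animal in each group.

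Total counts ranged from 14455195 to 23940980 per library. Markers of the labelled tissue were present in every library: ADIPOQ, the adipocyte hormone adiponectin, was at 1167 to 4604 CPM (counts scaled by effective library size) in AT, and ACTA1, the skeletal muscle actin, was at 7100 to 42331 CPM in SM, with group medians of at most 3.93 CPM in AT. The library identifiers begin with 4 different numbers, whose meaning the labels do not give. The 1 library with the first number (SM post-treatment, animal 19832) was counted with the next, which left 3 series, and values within the last series, the largest, are set beside the main ones.

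De novo synthesis turns citrate made from glucose into fatty acid. ACLY splits cytosolic citrate into acetyl-CoA, the acetyl-CoA carboxylases make malonyl-CoA from it, FASN builds palmitate from malonyl-CoA and NADPH, and ELOVL6 and SCD then lengthen and desaturate the product. Liver and adipose tissue are the main sites, and the genes are known to respond to insulin through SREBP-1 and to glucose through ChREBP, the products of SREBF1 and MLXIPL.

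The question of where these genes were expressed was answered in the pre-treatment libraries, in which 9 of the 10 were DE with a higher level in AT than in SM, against 37.8% of all genes. A gene was called DE where edgeR's quasi-likelihood test gave a Benjamini-Hochberg adjusted p (over every gene tested) below 0.05 and its fold change exceeded 0.26 in either direction on the log2 scale. The median log2 fold change of the 10 genes, AT over SM, was 3.16, beside 0.10 for all genes. The largest differences were in FASN (log2 fold change 5.86, SE 0.57, adjusted p = 2.01e-05), ELOVL6 (5.43, SE 0.66, adjusted p = 7.68e-05) and SCD (5.14, SE 1.02, adjusted p = 0.00154), the enzymes that build and modify the chain. THRSP (4.01), ACACA (3.57) and ACLY (2.74) followed.

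The other 4 genes differed less between the tissues. ME1, the cytosolic malic enzyme that supplies NADPH, was higher in AT by 1.17 on the log2 scale, and SREBF1 by 0.95. ACACB, the carboxylase at the mitochondrial surface whose malonyl-CoA restrains fatty acid entry, was higher in AT by 0.65 (SE 0.24, adjusted p = 0.0368), a call that was lost without animal 19832, 20275, 22130 or 23004 (log2 fold change 0.48 to 0.69 without one of them). MLXIPL ranged from 29.1 to 65.2 CPM in AT (median 45.2) and from 21.7 to 131 CPM in SM (median 47.7) on the scale shared by both tissues. The SM range enclosed the AT range, and the log2 fold change was 0.06 (SE 0.34, adjusted p = 0.877), with the sign turning to -0.37 when the animal was left out of the model. With library size alone, which moved the median of all genes from 0.10 to 0.93, MLXIPL stood at 0.89 (adjusted p = 0.0475), below that median. In that setting 10 of the 10 genes were DE, against 9988 of all 13662 genes in either direction.

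Whether lipogenic transcripts moved with FGF21 treatment was addressed by comparing post-treatment with pre-treatment AT. THRSP, ME1, FASN and ACACA fell, which is 4 of the 10 genes, against 8.49% of all genes called lower. All 10 fitted changes were below 0 with the main scaling, with a median log2 fold change of -1.01 beside 0.03 for all genes. With counts scaled to 7 adipocyte marker genes instead, the median of all genes moved to 0.60 and that of the markers from -0.21 to 0.30. SREBF1 (0.27) and MLXIPL (0.11) then had positive values that were below the median of all genes, and THRSP, ME1, FASN and ACACA were still DE. Over all genes 7618 of 13367 were DE in either direction with this scaling. The number of the 10 genes called was 2 without animal 20275, 21189 or 22130, each of which ended the calls of FASN and ACACA, and 6 without animal 20261.

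**Figure D1:**
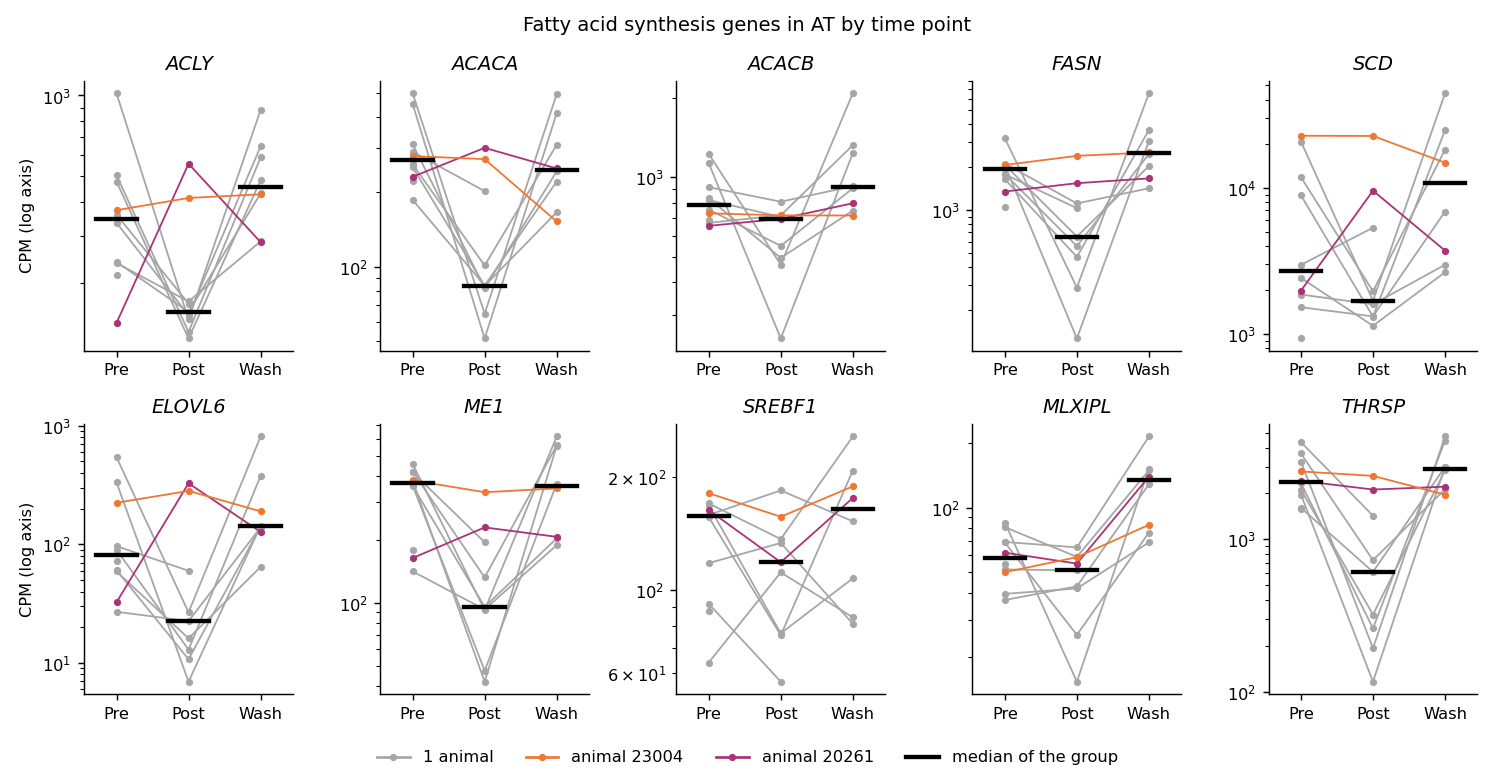
Level of each of the 10 genes (CPM, log axis, 1 panel per gene with its own range) in AT pre-treatment (Pre), post-treatment (Post) and at washout (Wash). Each line is 1 animal and black bars are group medians. Most lines of THRSP, FASN, ME1 and ACACA dip post-treatment, while animals 23004 and 20261 stay near or above their pre-treatment level.

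ACACA, the cytosolic acetyl-CoA carboxylase that makes malonyl-CoA for synthesis, was at 186 to 499 CPM pre-treatment (median 268, n = 10), at 51.4 to 301 CPM post-treatment (median 84.0, n = 9) and at 152 to 496 CPM at washout (median 245, n = 8). The post-treatment libraries of animals 20261, 23004 and 20456 lay within the pre-treatment range, and the other 6 lay below it. The fitted change was -1.22 on the log2 scale (SE 0.33, adjusted p = 0.0222), with lower levels in 8 of 9 animals.

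ACLY was at 142 to 1019 CPM pre-treatment (median 347) and at 124 to 556 CPM post-treatment (median 156). The ranges overlapped between 142 and 556 CPM, the lowest pre-treatment and the highest post-treatment value, both of animal 20261. The highest pre-treatment value was that of animal 22130, and 7 of 9 animals were lower post-treatment. Its change of -0.81 (SE 0.36, adjusted p = 0.118) did not pass. ACACB was at 654 to 1228 CPM pre-treatment (median 788) and at 244 to 808 CPM post-treatment (median 696). Its groups overlapped and the change of -0.50 (SE 0.22, adjusted p = 0.112) did not pass either.

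FASN, the multi-enzyme that carries out chain assembly, was at 1052 to 3183 CPM pre-treatment (median 1926), at 126 to 2397 CPM post-treatment (median 654) and at 1422 to 6570 CPM at washout (median 2502). Post-treatment, 6 libraries lay below every pre-treatment library, and those of animals 23004 and 20261 stood at 2397 and 1543 CPM. The fall of 1.27 on the log2 scale (SE 0.42) was close to the threshold, at an adjusted p of 0.0480. It was not called in 4 of 12 other settings, among them limma's voomWithQualityWeights (adjusted p = 0.0546) and a fit without the animal term (0.0575), nor in 8 of 11 fits that left out an animal or a library. In the 6 animals whose samples both fell in the last identifier series, FASN was lower in 5, with a mean change of -1.65 in log2 CPM.

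SCD and ELOVL6 varied most between animals. SCD, the stearoyl-CoA desaturase, was at 936 to 22677 CPM pre-treatment (median 2701), at 1142 to 22588 CPM post-treatment (median 1694) and at 2652 to 44198 CPM at washout (median 10862). Pre-treatment, animals 23004, 22130, 26292 and 24849 had 8890 CPM or more and the other 6 had 2977 CPM or less. The fitted change of SCD, -0.51 (SE 0.55, adjusted p = 0.543), did not pass, and its changes within single animals ran from -3.61 to 2.27 in log2 CPM. ELOVL6, which elongates palmitate to stearate, was at 27.0 to 543 CPM pre-treatment (median 81.1), at 6.96 to 327 CPM post-treatment (median 22.5) and at 64.4 to 811 CPM at washout (median 142). It fell as far as 5.56 on the log2 scale in animal 24849 and rose by 3.33 in animal 20261, and its fitted change of -1.33 (SE 0.76, adjusted p = 0.224) did not pass.

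ME1 was at 141 to 458 CPM pre-treatment (median 371), at 42.2 to 336 CPM post-treatment (median 95.7) and at 188 to 618 CPM at washout (median 359). Of the post-treatment libraries, those of animals 23004, 20261 and 20456 lay within the pre-treatment range and the other 6 below it. The fitted change was -1.34 (SE 0.35, adjusted p = 0.0186), with lower levels in 8 of 9 animals.

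THRSP, also known as Spot 14, was at 1589 to 4337 CPM pre-treatment (median 2377), at 117 to 2607 CPM post-treatment (median 612) and at 1962 to 4725 CPM at washout (median 2911). Post-treatment, 7 of 9 libraries lay below every pre-treatment library, and those of animals 23004 and 20261, at 2607 and 2121 CPM, lay within the pre-treatment range. THRSP had the lowest fitted value of the 10 genes, -1.91 (SE 0.47, adjusted p = 0.0150), and was lower in 9 of 9 animals. It was also lower in all 6 animals with both samples in the last identifier series (mean change -2.31 in log2 CPM), and no alternative setting ended the call.

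Neither transcription factor gene passed. SREBF1, whose transcripts for SREBP-1a and SREBP-1c were counted together, was at 63.8 to 181 CPM pre-treatment (median 157) and at 56.8 to 184 CPM post-treatment (median 118). The ranges were nearly the same, and the log2 fold change was -0.27 (SE 0.19, adjusted p = 0.326, 95% interval -0.64 to 0.10). MLXIPL was at 37.1 to 85.3 CPM pre-treatment (median 58.0) and at 15.4 to 65.3 CPM post-treatment (median 51.0). Only the post-treatment libraries of animals 20275 and 21189 lay below the pre-treatment range, and the log2 fold change was -0.40 (SE 0.23, adjusted p = 0.222).

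**Figure D2:**
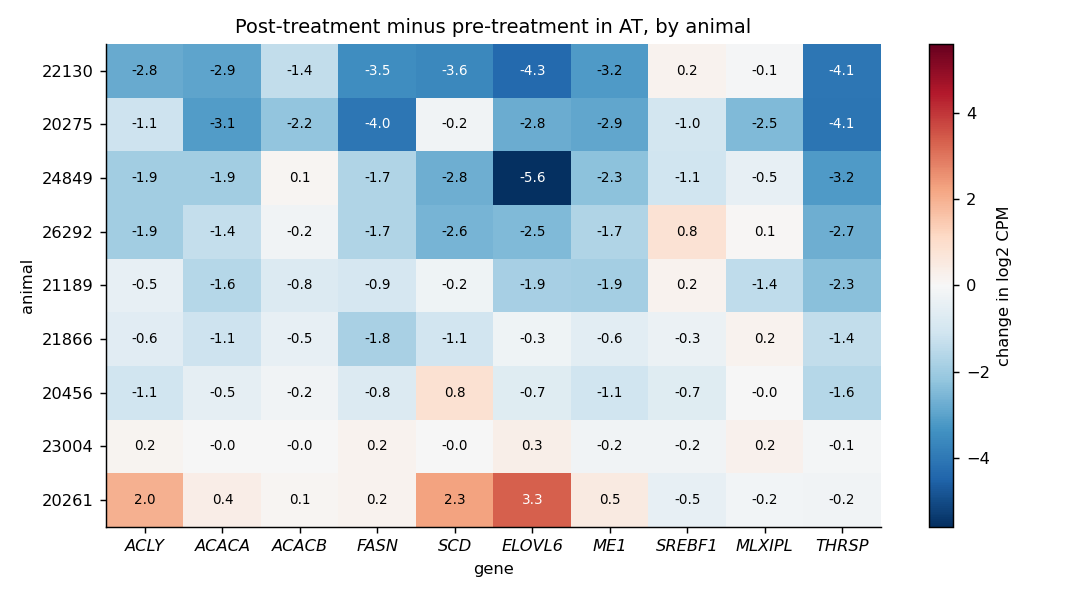
Change in log2 CPM from pre-treatment to post-treatment in AT for 9 animals (rows, ordered by their mean over the 10 genes) and the 10 genes (columns). Blue marks lower and red higher post-treatment levels. The mean change runs from -2.57 in animal 22130 to 0.79 in animal 20261.

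The 9 animals differed widely. Averaged over the 10 genes, the change in log2 CPM was -2.57 in animal 22130, -2.40 in animal 20275 and -2.08 in animal 24849. It was between -0.59 and -1.37 in animals 20456, 21866, 21189 and 26292. Animal 23004 stood at 0.04, with no gene changed by more than 0.33 in either direction, and animal 20261 stood at 0.79, where ACLY rose by 1.97, SCD by 2.27 and ELOVL6 by 3.33 while THRSP stood at -0.19 and FASN at 0.19. These values describe single animals with 1 biopsy per time point and carry no test.

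Cell type markers moved in the same AT libraries. All 14 macrophage markers had higher fitted levels post-treatment and 5 were DE, with a median log2 fold change of 0.97, and their summed level ranged from 1566 to 5806 CPM pre-treatment (median 3409) and from 3503 to 15740 CPM post-treatment (median 7621). Of the 7 adipocyte markers in the table, 6 had lower fitted values and 3 were DE (median -0.21), and their sum ranged from 22874 to 49131 CPM pre-treatment (median 28559) and from 14761 to 36434 CPM post-treatment (median 24477). CD68, a macrophage lysosomal protein, had medians of 273 and 631 CPM and did not pass (edgeR, adjusted p = 0.0757), whereas PLIN1, the coat protein of adipocyte lipid droplets, fell from a median of 2269 to 1487 CPM (adjusted p = 0.0383). Progenitor and fibroblast markers were higher in 8 of 9 cases with 3 DE (median 0.37), and the 4 erythroid markers were lower with 1 DE (median -1.39). The post-treatment library of animal 20275 had the highest macrophage sum and the lowest levels of FASN, THRSP and ACACA, but the order of the others did not follow the macrophage sum throughout. The lowest sum was that of animal 21866 (3503 CPM), with FASN at 470 CPM and THRSP at 612 CPM, followed by animals 20261 and 23004, and the sum of animal 21189 (13601 CPM) was the second highest, with FASN at 1113 CPM. The part of these cell types in the changes was not tested, and in bulk tissue fewer cells of a type and less RNA per cell cannot be told apart.

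Compared to post-treatment, 8 of the 10 genes rose in AT, against 17.6% of all genes called higher. Their median log2 fold change was 1.45 beside 0.00 for all genes, and all 10 fitted values were above 0 under each scaling tried. This comparison uses the same post-treatment libraries as the one above, so the values of both are set side by side and not counted as separate support. THRSP rose by 2.31 on the log2 scale (SE 0.51, adjusted p = 0.00204), FASN by 1.79 (SE 0.46, adjusted p = 0.00543) and ME1 by 1.53 (SE 0.37, adjusted p = 0.00364). ACLY (1.14), ACACA (1.12) and ACACB (0.81) rose as well, and ELOVL6 rose by 2.14 (SE 0.80) at an adjusted p of 0.0422. The call of ELOVL6 was lost in 5 of 12 other settings and in 7 of 11 fits that left out an animal or a library. That of ACLY was lost in 2 of 12 and 4 of 11, and that of ACACA in 1 of 12 and 1 of 11. SCD (1.49, adjusted p = 0.0581) and SREBF1 (0.29, adjusted p = 0.250) did not pass.

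MLXIPL had the smallest adjusted p of the 10 genes at washout. It was at 68.9 to 215 CPM at washout (median 134), above every post-treatment library and higher than post-treatment in 8 of 8 animals. The rise over post-treatment was 1.41 (SE 0.24, adjusted p = 2.53e-04). MLXIPL was also the only 1 of the 10 genes that was DE between washout and pre-treatment, at 1.01 on the log2 scale (SE 0.24, adjusted p = 0.00427) with higher levels in 8 of 8 animals, against 20.5% of all genes called in either direction in that comparison. The call was made in each alternative setting and with each animal left out, with values from 0.90 to 1.16 when an animal or a library was left out. The washout and pre-treatment ranges overlapped between 68.9 and 85.3 CPM.

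For the other 9 genes no difference between washout and pre-treatment passed. Fitted values ran from -0.10 for ACACA to 0.98 for SCD (SE 0.53, adjusted p = 0.199), and SCD and ACLY were called when only these time points were fitted (0.81 and 0.41, adjusted p = 0.0332 and 0.0462). ACACB was called with scaling to the adipocyte markers (0.66, adjusted p = 0.00957, beside 0.31 with the main scaling). SREBF1 stood at 0.03 (SE 0.20). Compared to post-treatment, 14 of 14 macrophage markers fell by washout (median -1.85), with sums of 997 to 5949 CPM (median 1600), and the adipocyte marker sums were 14882 to 45034 CPM (median 24118). Their part in the rise was not tested.

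The identifier series touched the washout comparison more than the earlier one. Only 3 animals had both the post-treatment and the washout sample in the last series, and their mean changes in log2 CPM were 1.298 for THRSP, 1.14 for FASN, 0.65 for ME1 and 1.503 for MLXIPL, beside 2.50, 2.05, 1.69 and 1.51 over all 8 animals. They were animals 20261, 21189 and 21866, whose changes averaged over the 10 genes were -0.18, 0.95 and 1.62. Animal 20261 was also the one with a mean change of 0.79 post-treatment, so series and animal cannot be told apart in these means. With the series as a covariate, 5 of the 10 genes were DE (THRSP, FASN, ME1, ACACB and MLXIPL), and ACLY, ACACA and ELOVL6 had adjusted p-values of 0.0583, 0.0552 and 0.0768.

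**Figure D3:**
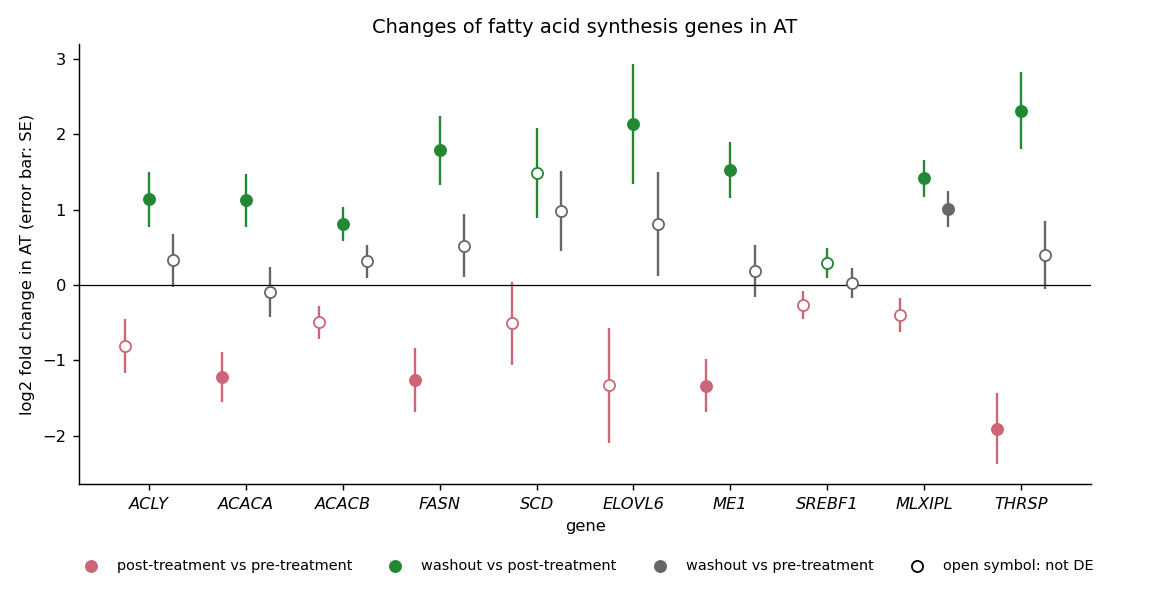
Fitted log2 fold changes in AT for the 10 genes, with SE as error bars. Filled symbols are DE and open symbols are not. The values post-treatment against pre-treatment lie below 0, those of washout against post-treatment above 0, and MLXIPL alone is DE at washout against pre-treatment.

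In SM none of the 10 genes was DE at any comparison. Between post-treatment and pre-treatment 0.0% of all genes were called by edgeR, and 0 by DESeq2 or limma. In edgeR 409 of 12617 genes had an unadjusted p under 0.05, a smaller share than the 0.05 that would be met with no change at all. Between washout and post-treatment 0.19% were called, and between washout and pre-treatment 0.0634%. Of the 10 genes, THRSP had an unadjusted p under 0.05 at post-treatment (p = 0.0295 in edgeR, adjusted p = 0.9996), with a log2 fold change of -1.05 (SE 0.43). The other fitted values at post-treatment ran up to 0.12 for SREBF1, those of washout against post-treatment from -0.36 for SREBF1 to 0.97 for SCD, and those of washout against pre-treatment from -0.54 for THRSP to 0.25 for SCD. With the identifier series as a covariate ACACB was called higher at washout than post-treatment (1.24, adjusted p = 0.0213), beside 0.48 (SE 0.31, adjusted p = 0.448) without it.

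The carboxylases and ME1 were clearly counted in SM. ACACB ranged from 78.0 to 477 CPM over the 21 SM libraries and was lowest in the post-treatment libraries of animals 21189 and 21866. These libraries had the highest summed progenitor and fibroblast markers in SM, 26479 and 19188 CPM. The sums were at most 7101 CPM pre-treatment and 6656 CPM at washout. Summed muscle fibre markers were as low as 63820 CPM post-treatment, against at least 162510 CPM pre-treatment and 193190 CPM at washout. The part of tissue content in the SM levels was not tested. ME1 ranged from 48.1 to 121 CPM, with pre-treatment values within 77.2 to 91.4 CPM in all 6 animals. ACACA stayed between 8.29 and 28.3 CPM, and ACLY between 15.7 and 61.2 CPM. The regulators were in a like range across time points, SREBF1 from 21.4 to 84.8 CPM and MLXIPL from 15.0 to 92.4 CPM, and the time points overlapped for each of these genes. ELOVL6 had as few as 4 counts in a library, so that its low SM values carry large counting error.

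FASN, SCD and ELOVL6 were set apart in SM by a few libraries. FASN was at 95.1 and 105 CPM in the pre-treatment and post-treatment libraries of animal 24849 and at 65.7 CPM in the washout library of animal 20456, and lower in the other 18, down to 7.49 CPM. SCD was at 746, 874 and 837 CPM in those libraries and at most 155 CPM in the others, and ELOVL6 was at 11.7, 12.9 and 15.0 CPM and at most 4.17 CPM in the others. The same 3 libraries had the highest sums of the 7 adipocyte markers, 1089, 1698 and 638 CPM, against 78.6 to 462 CPM elsewhere. Their part in these levels was not tested. With the 3 libraries left out, a choice made after the values were seen, 0 of the 10 genes were called in SM, and SCD stood at 0.97 for washout against post-treatment and at 0.26 for washout against pre-treatment.

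THRSP followed another order in SM. Animal 23004 had 386 CPM pre-treatment, 184 CPM post-treatment and 390 CPM at washout, the highest value of each time point, while its adipocyte marker sums were 141, 462 and 133 CPM. Elsewhere THRSP ranged from 10.3 to 172 CPM. Animal 22130 had the lowest value at each time point, 14.7, 10.3 and 17.8 CPM.

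**Figure D4:**
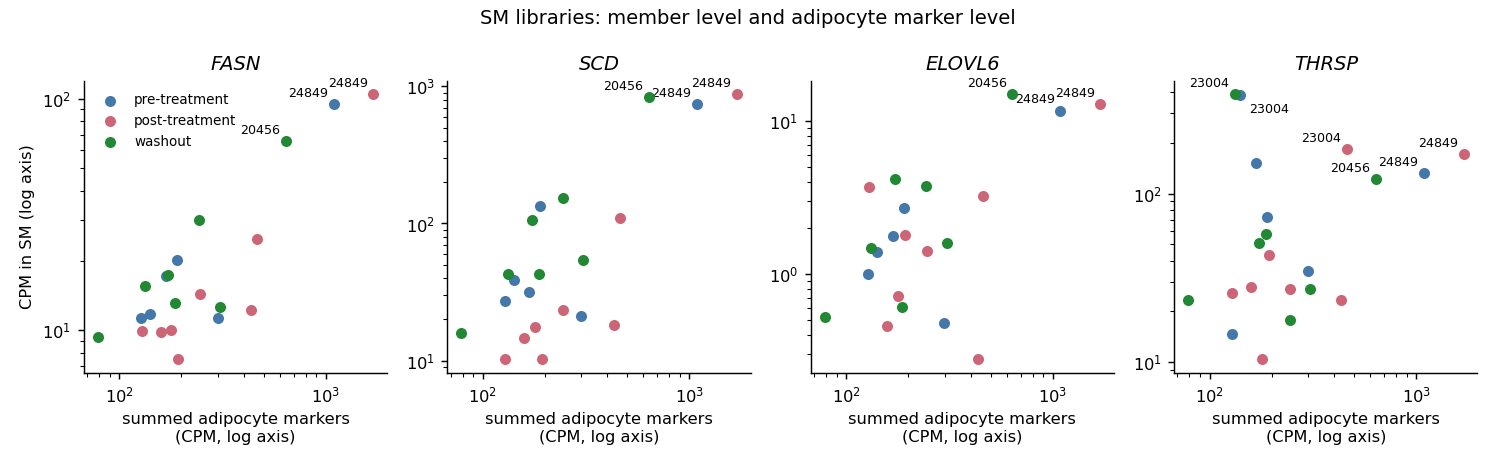
Levels of FASN, SCD, ELOVL6 and THRSP in 21 SM libraries (CPM, log axis) against the summed CPM of 7 adipocyte markers in the same library (log axis), colored by time point, with numbers naming animals. The 3 libraries with sums of 638 CPM or more are the highest for FASN, SCD and ELOVL6, whereas THRSP is highest in animal 23004.

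A change called in AT and not in SM need not differ between the tissues, and the difference was therefore tested as an interaction. For post-treatment against pre-treatment, 0 of the 10 genes differed between AT and SM by edgeR (0.0487% of all genes), and 2 had an unadjusted p under 0.05: ME1, whose change was lower in AT by 1.37 (SE 0.44, adjusted p = 0.230), and ACACA, lower by 1.33 (SE 0.44, adjusted p = 0.252). No other tool was run for this test. For washout against post-treatment, ME1 (1.60, SE 0.44, adjusted p = 0.00881) and MLXIPL (1.59, SE 0.34, adjusted p = 0.00105) rose more in AT than in SM, against 22.7% of all genes called. FASN (1.59, adjusted p = 0.0921) and THRSP (1.79, adjusted p = 0.0619) did not pass. For washout against pre-treatment, MLXIPL differed (1.26, SE 0.35, adjusted p = 0.0108), against 17.5% of all genes, and without animal 19832 it did not pass (1.03, adjusted p = 0.0517).

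The pathway around these enzymes was described with lists of further genes. In AT post-treatment, genes that supply acetyl-CoA and citrate were lower in 12 of 13 cases and 10 fell, with a median log2 fold change of -0.49 beside 0.03 for all genes. Among them SLC25A10, the mitochondrial dicarboxylate carrier, fell by 0.94, SLC25A1, the citrate carrier, by 0.79, ACSS2, which activates acetate, by 0.77, and CS, citrate synthase, by 0.55. SLC25A1 lost its call in 7 of 11 fits that left out an animal or a library. With scaling to the adipocyte markers 7618 of 13367 genes were DE in either direction. The acetyl-CoA and citrate list then had 7 higher and 6 lower values, with 1 DE in each direction, and SLC25A1 (-0.28), ACSS2 (-0.25) and CS (-0.01) were not DE. In the same libraries 9 of the 12 elongase, desaturase and elongation cycle genes were lower and 5 fell, among them ELOVL3 (-1.16), FADS2, the delta-6 desaturase (-1.10), ELOVL5 (-0.94) and HACD2 (-0.88). ELOVL3 was barely counted, with medians of 1.27 CPM pre-treatment and 0.60 CPM post-treatment. The call of ELOVL5 was lost without animal 20275 or 22130. With scaling to the adipocyte markers 7 of these 12 genes were higher and 5 lower, with 3 DE higher and 1 lower, and ELOVL3 (-0.62), ELOVL5 (-0.43) and HACD2 (-0.36) were not DE.

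NADPH supply changed less evenly. Of 10 genes, 5 fell and 1 rose post-treatment (median -0.31). TKT, the transketolase of the pentose phosphate pathway, fell by 0.97 on the log2 scale (SE 0.17, adjusted p = 0.00251). ME3, the mitochondrial malic enzyme, fell by 0.69 and NNT, the mitochondrial transhydrogenase, by 0.57, whereas RPIA rose by 0.53. TKT was at 513 to 992 CPM pre-treatment (median 663) and at 232 to 582 CPM post-treatment (median 298), so that the groups overlapped only between 513 and 582 CPM.

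Genes that act on the regulators did not move as a block. Of 9 genes of SREBP processing and the liver X receptors, 1 fell (SREBF2, the sterol-responsive relative of SREBF1, -0.72) and 1 rose. The gene that rose was NR1H3, which encodes LXR alpha, known both as an inducer of SREBF1 and as a macrophage gene, with 20.2 to 41.4 CPM pre-treatment (median 24.9) and 19.9 to 107 CPM post-treatment (median 66.4). Its log2 fold change was 1.19 (SE 0.20, adjusted p = 0.00178), in the libraries in which the macrophage markers were higher. Of 7 ChREBP partners and glucose-responsive targets tested, LPIN1, a phosphatidate phosphatase (-1.38, SE 0.28, adjusted p = 0.00549), and PNPLA3 (-1.05, adjusted p = 0.0363) fell, and PNPLA3 lost its call in 6 of 11 fits that left out an animal or a library.

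Of 9 genes that control acetyl-CoA carboxylase, 2 fell: MID1IP1, a relative of THRSP whose product promotes polymerization of the carboxylase (-1.03, SE 0.18, adjusted p = 0.00262), and PRKAA2, an AMPK catalytic subunit (-0.71). Of 10 acyl-CoA synthetase and acyl carrier genes, ACSL6 (-1.17), MECR (-0.84) and ACSL1 (-0.54) fell, the last of these losing its call in 5 of 11 fits that left out an animal or a library. These list results depended on the scaling. With scaling to the adipocyte markers each list had a median above 0 and below the median of all genes of 0.60. Of the 19 named genes that fell with the main scaling, 5 were still DE (FADS2, SLC25A10, TKT, LPIN1 and ACSL6) and 14 were not. The scaling did not level the 7 markers it was built on. Their median was 0.30, with 4 higher (2 DE) and 3 lower (1 DE), so lost calls do not show what adipocyte content contributed. With this scaling the genes of carboxylase control had 4 DE higher and 0 lower, and those of SREBP processing and the liver X receptors 5 higher and 0 lower. Over all genes 7618 of 13367 were then DE in either direction, a share that neither of these lists of 9 genes exceeded. In SM 0 genes of any list were DE post-treatment.

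The values of the named genes at washout are given as a description, since these genes were chosen for their change post-treatment and both comparisons use the same post-treatment libraries. Compared to post-treatment, LPIN1 rose by 1.58, PNPLA3 by 1.81, ACSL6 by 1.32, FADS2 by 1.14 and ELOVL5 by 1.07 on the log2 scale. ELOVL3, with a median of only 1.49 CPM at washout, rose by 1.05, ACSS2 by 1.02, TKT by 0.96 and SLC25A1 by 0.96, and NR1H3 fell by 1.02. ACSL1 (0.26), NNT (0.29) and RPIA (-0.23) did not pass. HACD2 (0.03) and PRKAA2 (0.08) did not pass either and were lower at washout than pre-treatment, by 0.85 and 0.63 (adjusted p = 0.00784 and 0.0193).

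**Figure D5:**
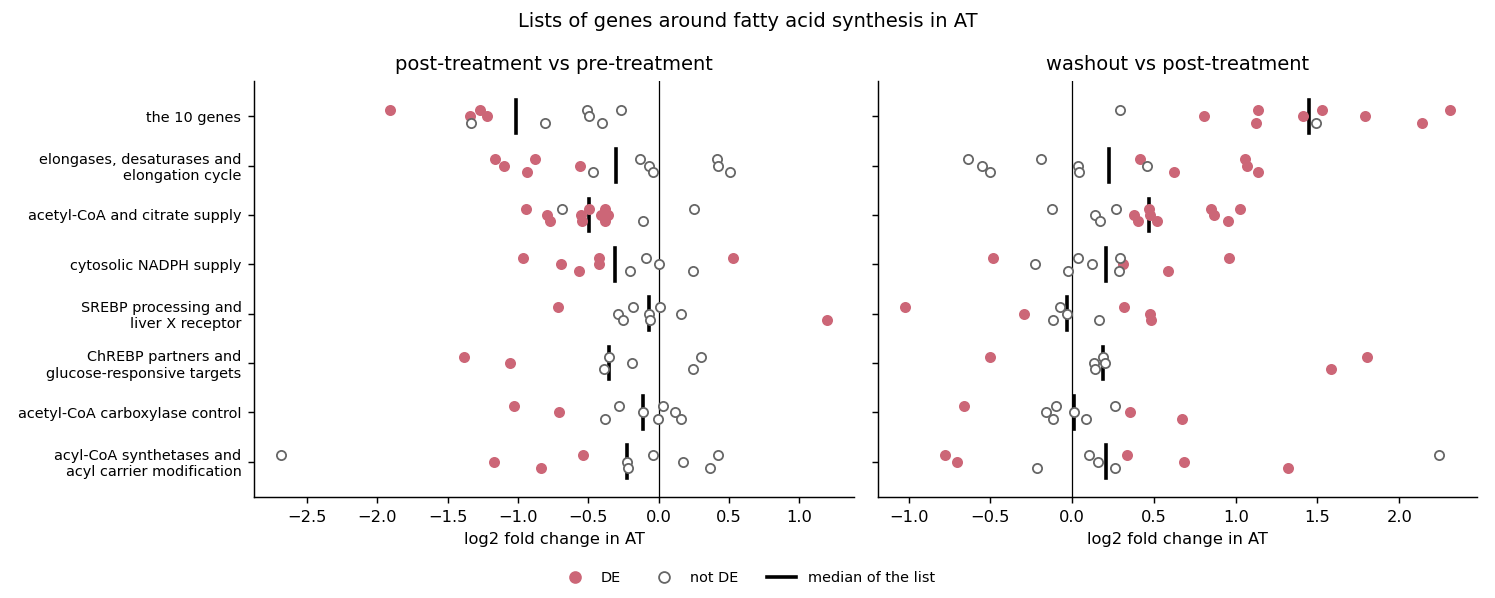
Log2 fold changes in AT of the 10 genes and of 7 lists of related genes, post-treatment against pre-treatment (left) and washout against post-treatment (right). Each point is 1 gene, filled where DE, and black bars are list medians. The bars of the 10 genes stand at -1.01 and 1.45, farther from 0 than those of the other lists.

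Whether the regulators' transcripts changed with those of the enzymes in the same animals was examined over 17 pairs of genes in the 9 animals with pre-treatment and post-treatment AT. None passed after Benjamini-Hochberg adjustment over the pairs. The largest coefficient was that of MLXIPL and ACACB, with Pearson r = 0.734 (exact permutation p = 0.0371, adjusted p = 0.479) and Spearman rho = 0.300 (exact permutation p = 0.437, adjusted p = 0.926), and it rested on 2 animals, since r was -0.154 without the 2 farthest from the median of MLXIPL. MLXIPL with ACACA had r = 0.586 (exact permutation p = 0.0917, adjusted p = 0.479) and a Spearman coefficient of 0.600 (exact permutation p = 0.0968, adjusted p = 0.686), with r = 0.302 without those animals. With THRSP it had r = 0.532 (exact permutation p = 0.134, adjusted p = 0.479) and a Spearman coefficient of 0.633 (exact permutation p = 0.0760, adjusted p = 0.686), with r = 0.431 without them. With ME1 it had r = 0.532 (exact permutation p = 0.141, adjusted p = 0.479) and a Spearman coefficient of 0.567 (exact permutation p = 0.121, adjusted p = 0.686), with r = 0.390 without them. For SREBF1 the 8 coefficients with the enzymes and THRSP ran from r = -0.305 for SCD to r = 0.111 for FASN, with exact permutation p-values of 0.424 and 0.771 (adjusted p = 0.944 for both). The Spearman coefficients were -0.250 (exact permutation p = 0.521) and 0.167 (exact permutation p = 0.678), adjusted p = 0.926 for both, and r was -0.495 and 0.184 without the 2 farthest animals.

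Likeness among the 10 genes was described across the 27 AT libraries. The Pearson r of each gene's log2 CPM with the mean of the other 9 was 0.937 for FASN, 0.886 for THRSP, 0.885 for ACACA, 0.880 for ELOVL6, 0.873 for ME1 and 0.858 for ACLY. It was 0.798 for ACACB, 0.705 for MLXIPL, 0.696 for SCD and 0.147 for SREBF1. The libraries share animals and time points, which enter these values. The genes outside the set with the highest r to its mean were DHRS11 (0.918), AACS (0.914), SLC38A3 (0.895), CCDC92 (0.893), RBPMS2 (0.890), EPB41L5 (0.885), AKR1C1 (0.877) and DGAT2 (0.873), of which AACS encodes acetoacetyl-CoA synthetase and DGAT2 the enzyme of the last step of triglyceride synthesis. Across the 21 SM libraries the corresponding r was 0.881 for FASN and 0.870 for SCD, 0.468 for THRSP and between -0.200 and 0.611 for the other 7, and the genes most like the mean included DGAT2 (0.890), RBP4 (0.903) and PLIN1 (0.854), the last of these an adipocyte marker.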

How the data were processed

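RNA of punch biopsies was sequenced as stranded mRNA libraries. Alignment by the authors used STAR and the MacaM genome, and they deposited raw gene counts, whole numbers without normalization, for 48 of 51 labelled samples. The submitters' processing notes also name FastQC, SAMtools, edgeR and limma. The 3 labelled SM samples without counts were not analysed here. Of 16103 entries, 70 that repeated a gene were dropped, all with identical values. Human homolog symbols are those in the deposited table. Whether reads were counted by strand is not given in the sources used here.

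Testing was limited to genes that reached 0.5 CPM in 10% or more of a tissue's libraries (13367 in AT, 12617 in SM, 12322 in both for the interaction, 13662 in either for AT against SM). Robust two-sided quasi-likelihood tests, with time point and animal in the model and 1 fit per tissue, were made in edgeR 4.0.16 (R 4.3.3) after TMM normalization. Log2 CPM carried a prior count of 2. The study's own fit, voomWithQualityWeights of limma 3.58.1, and DESeq2 1.42.0 were alternatives. CPM use the TMM library sizes of the tissue, and CPM of different genes are not compared since no transcript lengths were used. The pipeline was also tested on simulated data, with 200 genes changed by 1.5 on the log2 scale: for AT post-treatment against pre-treatment 177 were recovered with 10 false calls among 13246 genes, and for the same comparison in SM 140 with 9 false calls among 12472 genes. The simulated means did not differ between animals, and of the 10 genes only THRSP had a larger fitted change post-treatment in AT. The recovery is therefore no measure of power for these genes.

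Samples of an animal carry its number in the labels, which pairs them. Their deviations from time point means correlated with a median r of 0.352 over 25 same-animal pairs in AT, against -0.0354 over 217 other pairs, and of 0.279 over 19 pairs in SM, against -0.0464 over 127. Correlations used SciPy 1.17.1, and figures matplotlib 3.10.9.

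The 10 genes, the gene lists and the tests were chosen with earlier results of these data known. Named are the 10 genes, for each pathway list the DE genes post-treatment in AT (at most the 4 with the largest change), the 8 genes most like the set in AT, and ADIPOQ, PLIN1, CD68 and ACTA1 as markers. The SM genes named as most like the set, single animals and libraries were chosen after their values were seen.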

Additional observations from a re-analysis of the deposited data

Results flagged for a closer look

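Within each of 60 groups (10 genes, both tissues, all time points), the highest or lowest library was compared with its nearest neighbor relative to the range of the group. This test flags about 1 in 20 groups by chance where values are normally distributed. It was run on CPM and not on a log scale. Groups with a long upper tail, such as SCD post-treatment in SM (median 17.8, highest 874 CPM), are flagged high more often, so that rate need not hold. By this rule 19 values stood apart, all high. They fell on 10 libraries, 3 of AT and 7 of SM, and 13 of the values were in SM. The pre-treatment and post-treatment libraries of animal 24849 stood apart for FASN (95.1 and 105 CPM), SCD (746 and 874 CPM) and ELOVL6 (11.7 and 12.9 CPM), and the washout library of animal 20456 for FASN (65.7 CPM), SCD (837 CPM) and ELOVL6 (15.0 CPM). Animal 23004 stood apart for THRSP pre-treatment (386 CPM) and at washout (390 CPM), animal 22130 for ACLY at washout (61.2 CPM) and animal 21189 for SREBF1 at washout (64.8 CPM).

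In AT the washout library of animal 22130 stood apart for FASN (6570 CPM, next 3636), ELOVL6 (811 CPM) and ACACB (2089 CPM), and its pre-treatment library for FASN (3183 CPM) and ACLY (1019 CPM). The post-treatment library of animal 23004 stood apart for SCD (22588 CPM, next 9560).

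By the interaction test of edgeR, the change from post-treatment to washout differed between AT and SM for ME1 (1.60 on the log2 scale) and MLXIPL (1.59). These were 2 of the 10 genes, against 22.7% of all genes. The change from pre-treatment to washout differed for MLXIPL (1.26), which is 1 of the 10 genes against 17.5% of all genes. Without animal 19832 that call was lost (adjusted p = 0.0517).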

How the results depend on the processing

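Precision was limited by the number of animals, 6 to 10 per group, and for ELOVL6 in SM also by depth. Of the 10 genes, the number DE was 4 (AT, post-treatment against pre-treatment), 8 (washout against post-treatment) and 1 (washout against pre-treatment). It kept within 1.5 times of these values in all but the following settings. With the identifier series as a covariate it was 5 for washout against post-treatment in AT and 1 in SM (0 without). For washout against pre-treatment in AT it was 2 with scaling to the adipocyte markers and 3 with only these time points fitted. For the difference between AT and SM at washout against post-treatment it was 4 with library size alone, beside 2. The cause was not tested. Leaving out an animal or a library gave 2 to 6 and 6 to 9 genes for the AT comparisons with post-treatment, 2 to 5 for AT minus SM at washout against post-treatment (5 without animal 20261, 4 without animal 20456 or 23004) and 0 to 1 for AT minus SM at washout against pre-treatment, where the 0 was without animal 19832. Counts over all genes moved more: 2068 genes were DE in AT post-treatment, 1420 without the animal term, 805 without animal 22130, 998 without animal 20275, 1316 without animal 21189, 1162 without the pre-treatment library of animal 20275 and 7618 with scaling to the adipocyte markers. In SM at washout against post-treatment 24 genes were DE, 359 by DESeq2 and 2648 with the series as a covariate. At washout against pre-treatment in SM these counts were 8, 170 and 1353.

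Among the single-gene changes followed through these settings, signs turned only for values that were not DE. Further genes of the lists turned as well. With scaling to the adipocyte markers the acetyl-CoA and citrate list had 6 lower values post-treatment, fewer than the 10 that were DE lower with the main scaling. At washout against pre-treatment in AT, ACACA stood at 0.0046 with library size alone and 0.25 with scaling to the adipocyte markers, and ME1 at -0.13 and THRSP at -0.16 with the series. Post-treatment, SREBF1 stood at 0.27 and MLXIPL at 0.11 with scaling to the adipocyte markers. At washout against post-treatment, HACD2 and PRKAA2 stood at -0.072 and -0.076 with voomWithQualityWeights, -0.28 and -0.085 with the series and -0.16 and -0.10 with scaling to the adipocyte markers. SCD in SM at washout against pre-treatment was -0.25 with only these time points. With an animal or library left out, values ran from -0.16 to 0.022 for ACACA and from -0.078 to 0.13 for SREBF1 at washout against pre-treatment in AT, from -0.10 to 0.22 for HACD2 at washout against post-treatment, from -0.41 to 0.87 for SCD in SM at washout against pre-treatment and from -0.19 to 0.29 for MLXIPL between AT and SM.

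Without the animal as a block for the pairing, 3, 7 and 1 of the 10 genes were DE in the AT comparisons and 0 in SM. FASN post-treatment (-1.07, adjusted p = 0.0575) and ELOVL6 at washout (1.55, adjusted p = 0.115) lost their calls, and MLXIPL between AT and SM pre-treatment turned to -0.37. edgeR's earlier quasi-likelihood method, added after the data were seen, gave FASN an adjusted p of 0.0512.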
